A study of Mus musculus with 6 samples.

Results

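Mitochondrial ribosomal protein genes were taken as the protein-coding entries of the count table whose symbol was Mrpl or Mrps followed by a digit, which gave 78 of the 40481 genes. The 78 genes carried 77 symbols, because Mrps23 was listed under 2 identifiers. RNA was sequenced from unstimulated bone marrow-derived macrophages (BMDMs), cultured from marrow in a conditioned medium that supplies macrophage colony-stimulating factor. The wild-type group had 3 libraries, and the Scd2-m/-m group, given the genotype Scd2-KO in the labels, had 3 libraries from mice in which floxed Scd2 was deleted by lysozyme M-Cre, a recombinase active in myeloid cells. The study used mice of both sexes that were a few months old. The sex and age behind each library, and whether the wild-type mice carried the floxed allele or the Cre, are not given in the labels or methods. The libraries held between 46285176 and 57629638 counts on genes, and the members received between 0.174% and 0.185% of them.

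The mitochondrial ribosome, or mitoribosome, translates the mRNAs encoded by mitochondrial DNA, whose products are core subunits of the respiratory chain and of ATP synthase. Its rRNAs come from mitochondrial DNA, but all of its proteins are encoded in the nucleus, made in the cytosol and imported. Some of these proteins descend from the ribosome of the bacterial ancestor of mitochondria, and others were added during the evolution of the organelle. By its name an Mrpl protein belongs to the large subunit and an Mrps protein to the small subunit, although structures have moved a few. Scd2 itself encodes a fatty acid desaturase of the endoplasmic reticulum.

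Scd2, the targeted gene, was at 66.9, 77.7 and 62.7 CPM (a gene's counts relative to the total of its library, scaled by the trimmed mean of M values) in the wild-type libraries and at 59.5, 37.9 and 39.8 CPM in the Scd2-m/-m libraries. All Scd2-m/-m libraries lay below all wild-type libraries, at a mean of 66.2% of wild-type, but the difference missed the threshold (log2 fold change -0.59, SE 0.19, edgeR quasi-likelihood FDR = 0.100). Scd2-m/-m replicate 1 was well above replicates 2 and 3. Of the 6 edgeR fits that left out 1 library, 1 called Scd2 lower (FDR = 8.8e-05). The log2 fold changes of those fits ran from -0.83 to -0.48. By quantitative PCR the paper reported a larger fall of the Scd2 transcript in Scd2-m/-m macrophages. Counts per gene cannot show whether reads came from exons left after the deletion, and this was not tested. Macrophage markers were abundant in every library, with sums over 8 genes of 37446-38353 CPM in wild-type against 21439-21959 CPM. Lyz2 made up most of the wild-type sum, at means of 22742 and 9026 CPM (39.7% of wild-type). The other macrophage markers ran from 71.2% (Adgre1) to 117% (Cd68) of wild-type. Any effect of the lysozyme M-Cre on Lyz2 itself was not tested. Of the 8 macrophage markers 1 was called higher and 4 were called lower. All 10 markers of cell division were called higher, with sums of 49.7-59.1 against 146-157 CPM. Of 8 monocyte and progenitor markers 6 were called higher (47.4-67.4 against 145-206 CPM), and of 8 tested neutrophil markers 5 were called higher and 1 lower (169-179 against 152-182 CPM). Csf3r made up most of the neutrophil sum, at means of 164 and 135 CPM, and was the marker called lower. S100a9, Ngp, Ltf, S100a8 and Mpo were called higher, from wild-type means of 0.544-4.07 to Scd2-m/-m means of 1.05-8.74 CPM. Markers of B cells summed to 54.1-119 against 83.5-116 CPM, with 2 of 4 tested called higher. Ighm made up most of the B cell sum, at means of 86.5 and 88.4 CPM, and was not called. The 2 called were Cd79b (2.50 to 5.01 CPM) and Cd79a (0.232 to 0.590 CPM). Markers of T and NK cells, fibroblasts, erythroid cells and mast cells stayed at or below 2.195 CPM in sum. No marker of T and NK cells or of mast cells had enough counts to be tested. Of the fibroblast markers 2 were tested and of the erythroid markers 1, and none of these was called. The part of these shifts in the results below was not tested, and in bulk RNA fewer cells of a type and less RNA per cell cannot be told apart.

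Of the 78 genes, 76 had enough counts to be tested. Mrpl53, a large-subunit protein gene, had 0 counts in every library, which allows at most 0.0650 CPM at the shallowest library and covers counting error only. However, 88.0% of its exonic bases are also annotated to Gm42688 on the same strand or to Ccdc142os on the opposite one, so a count of 0 cannot be read here as a lack of expression. The second Mrps23 entry (ENSMUSG00000098375) also had 0 counts in every library, and it has no exon in the annotation used here. Each tested member had between 162 and 8320 counts in a library.

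Most mitoribosomal protein transcripts differed little between the genotypes. By the edgeR quasi-likelihood test adjusted over all genes, 5 of the 76 tested members were higher and 3 were lower in Scd2-m/-m BMDMs at an FDR below 0.05. With upper-quartile factors for library size the split was 5 higher and 1 lower. These 8 called members are 10.5% of those tested. The share called among all 14778 genes tested was 17.5%, with 9.65% higher and 7.84% lower, and it was 20.1% among the 8096 genes whose mean level lay in the members' range of 4.35 to 122 CPM. None of the 76 members passed an FDR below 0.05 together with an absolute log2 fold change above 2, limits that 98 genes (0.663%) passed. The paper set the same limits in its own analysis with edgeR and limma and reported fewer genes. At an unadjusted edgeR p below 0.05 there were 17 of the 76 members. That is a smaller share than the 4459 of all 14778 genes, or the 2770 of the 8096 genes in the members' range.

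The members' log2 fold changes ran from -0.53 to 0.39 with a median of 0.045, and the median over all genes tested was 0.0039. Their SD was 0.148 against 0.449 over all genes and 0.291 among genes in the same range of level. The fold change was above 0 for 46 of 76 members (60.5%, against 50.7% of all genes). The 3 Scd2-m/-m libraries all lay above the 3 wild-type libraries for 16 members (21.1%, against 17.9% of all genes) and all below for 7 (9.21%, against 17.0%), together 30.3% against 34.9%. An absolute log2 fold change above 0.5 was seen in 1 member, Mrpl52, and in 14.6% of all genes. The 95% confidence interval lay within 0.5 of 0 on the log2 scale for 73 members, and the other 3 were Mrpl52, Mrps6 and Mrps34. The libraries resolved such sizes, since the median SE of a member's log2 fold change was 0.081, and the coefficient of variation between libraries was 5.34% (wild-type) and 5.20% (Scd2-m/-m) at the median.

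**Figure D1:**
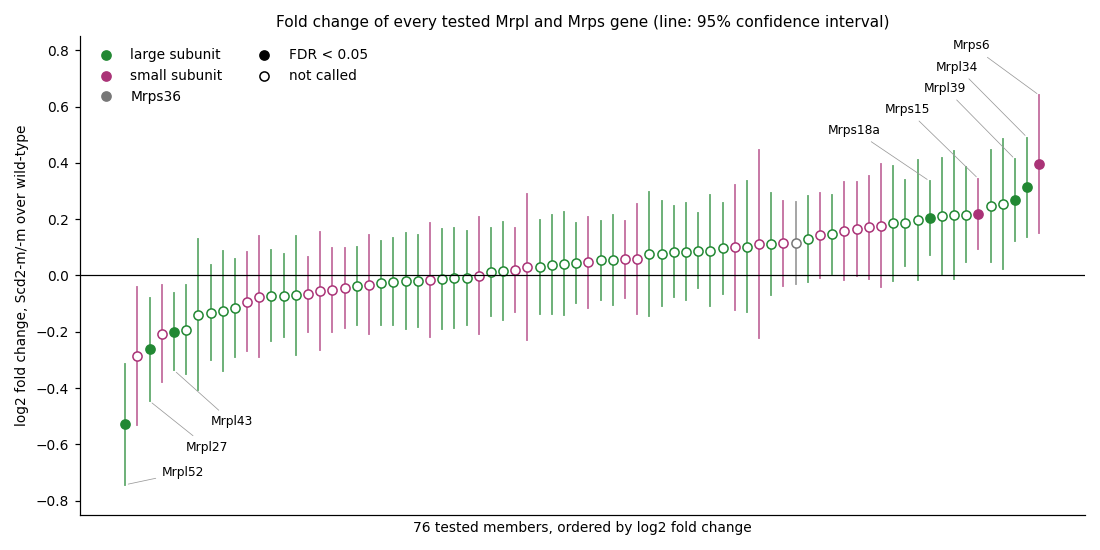
Log2 fold change of Scd2-m/-m over wild-type for the 76 tested Mrpl and Mrps genes, each with its 95% confidence interval, coloured by subunit and filled where FDR was below 0.05. The points run from -0.53 for Mrpl52 to 0.39 for Mrps6, and of the 8 filled points that of Mrpl52 lies below every open point, those of Mrps6, Mrpl34 and Mrpl39 lie above every open point, and the other 4 lie among open points.

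The 3 members that fell all belong to the large subunit, which holds 49 of the 76 tested members. Mrpl52 (ENSMUSG00000010406, chr14:54426909-54429756, GRCm38, plus strand), a protein found in mitochondrial and not in bacterial ribosomes, was at 168, 144 and 121 CPM in wild-type and at 102, 97.5 and 99.9 CPM in Scd2-m/-m libraries. The lowest wild-type library was above the highest Scd2-m/-m library, and the spread within wild-type (SD 23.5) was 10.03 times that within Scd2-m/-m (SD 2.34). Its mean in Scd2-m/-m was 69.3% of wild-type (log2 fold change -0.53, SE 0.097, FDR = 0.0033), and it shares no exonic bases with another gene. It was called in each of the 6 fits that left out a library, with values from -0.64 to -0.41.

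Mrpl27, the counterpart of a bacterial protein near the site of peptide bond formation, was at 16.2, 18.3 and 17.5 CPM in wild-type and at 13.6, 15.6 and 14.1 CPM in Scd2-m/-m (log2 fold change -0.26, SE 0.085, FDR = 0.0480). The groups did not overlap, although the closest libraries were 0.561 CPM apart. Mrpl43, a mitochondria-specific protein, was at 42.6, 39.4 and 42.2 CPM in wild-type and at 37.0, 36.7 and 34.5 CPM in Scd2-m/-m (log2 fold change -0.20, SE 0.064, FDR = 0.0460). All 3 of its Scd2-m/-m libraries were below the lowest wild-type library. These 2 calls were each kept in 1 of the 6 fits without a library.

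Mrpl43 lies on chromosome 19, 0.698 Mb from Scd2. Of its exonic bases 33.4% are also annotated to Twnk on the opposite strand, which encodes the helicase that unwinds mitochondrial DNA, and the sources used here do not state whether counting used strand. Reads from Mrpl43 and Twnk can therefore not be told apart where the genes overlap. Twnk was at 7.51, 9.45 and 8.40 CPM against 6.86, 6.80 and 6.71 CPM (log2 fold change -0.32, SE 0.11, FDR = 0.0661). Within 5 Mb of Scd2, 27 of 105 tested genes were called (25.7%, against 17.5% of all genes), 19 of them lower (18.1%, against 7.84%). Whether Mrpl43 moved with its neighbours was not tested.

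Of the 5 members that rose, Mrpl39 (ENSMUSG00000022889, minus strand of chromosome 16), a mitochondria-specific large-subunit protein, was at 21.7, 20.8 and 21.5 CPM in wild-type and at 24.9, 26.7 and 25.3 CPM in Scd2-m/-m. The closest libraries of the groups were 3.19 CPM apart (log2 fold change 0.27, SE 0.068, FDR = 0.0145). Mrpl34, the counterpart of a small bacterial large-subunit protein, was at 18.6, 18.0 and 20.7 CPM against 24.9, 24.7 and 21.7 CPM. Its Scd2-m/-m replicate 3 was close to its highest wild-type library (log2 fold change 0.31, SE 0.082, FDR = 0.0169).

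Mrps15, a counterpart of a bacterial protein that binds the rRNA of the small subunit, was at 55.9, 54.5 and 54.8 CPM in wild-type and at 64.8, 65.5 and 61.8 CPM in Scd2-m/-m (log2 fold change 0.22, SE 0.058, FDR = 0.0195). The wild-type libraries lay within 1.48 CPM of each other. Mrps18a was at 37.3, 36.3 and 35.0 CPM against 41.2, 42.5 and 41.4 CPM, again without overlap (log2 fold change 0.20, SE 0.061, FDR = 0.0330). Mammals have 3 relatives of the bacterial protein S18, and the one encoded by Mrps18a sits in the large subunit despite its name. The other two, Mrps18b and Mrps18c in the small subunit, did not pass, with log2 fold changes of -0.016 (SE 0.094) and 0.18 (SE 0.10), respectively. The difference between the 3 relatives was not tested.

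Mrps6 had the largest positive value of the members, at 10.1, 9.36 and 7.98 CPM in wild-type against 13.6, 11.6 and 10.8 CPM in Scd2-m/-m (log2 fold change 0.39, SE 0.11, FDR = 0.0284). Its groups came within 0.748 CPM of each other. This value is uncertain, because 19.9% of its exonic bases are shared with Slc5a3 and Gm49711 on the same strand. The 5 rises were each lost in between 2 and 4 of the 6 fits that left out a library. Without wild-type replicate 2, and again without Scd2-m/-m replicate 2, Mrpl52 was the 1 member still called, while the count over all genes went from 2585 to 1490 and 1440. Without wild-type replicate 3 there were 3 called members, and without Scd2-m/-m replicate 3 there were 5.

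**Figure D2:**
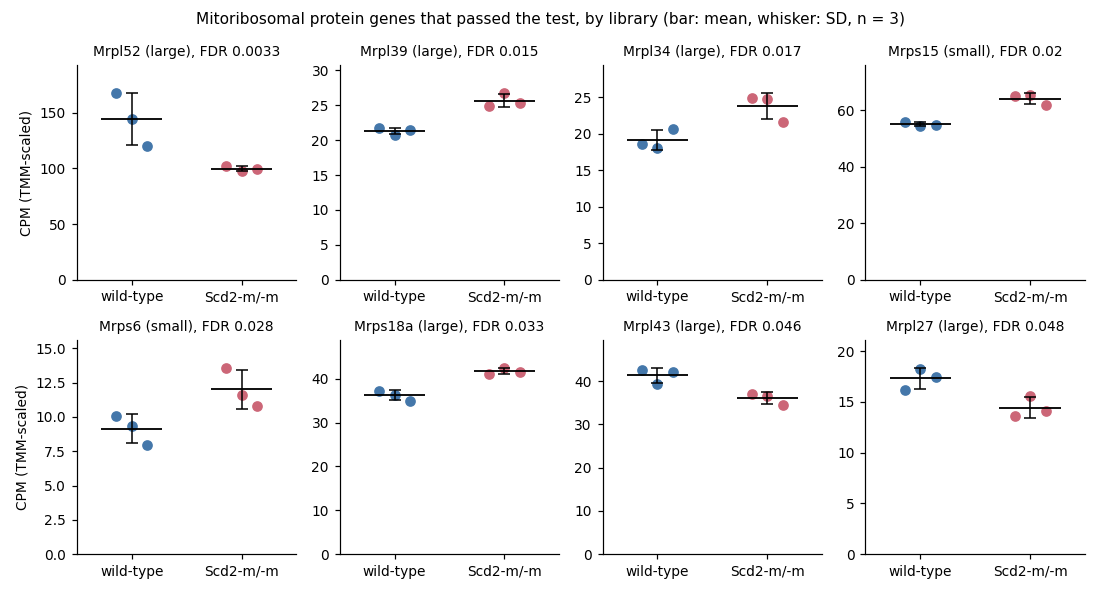
Level in each library (CPM, scaled by the trimmed mean of M values, axes from 0) of the 8 members with an FDR below 0.05, with the mean and SD of 3 libraries per genotype. In each panel the 3 Scd2-m/-m points lie entirely above or below the 3 wild-type points, by less than 1 CPM in Mrpl27 and Mrps6.

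Apart from Mrpl52, Mrps6 and Mrpl34, whose values were the largest, called and uncalled members had fold changes of similar size. Just inside it was Mrpl27 at an FDR of 0.0480, and just outside were Mrpl35 at 0.0741 (log2 fold change 0.22) and Mrpl46 at 0.0841 (log2 fold change 0.25), 2 large-subunit genes, the first named here after its values were seen. The 3 uncalled members with the largest fold changes were Mrps34, Mrpl1 and Mrpl46. Mrps34, a mitochondria-specific small-subunit protein, was at 14.0, 13.5 and 16.3 CPM against 13.3, 12.6 and 9.99 CPM (log2 fold change -0.29, SE 0.11, FDR = 0.103), and 77.8% of its exonic bases are shared with Nme3 or Mapk8ip3. Mrpl1, the protein of the stalk through which spent tRNA leaves, was at 9.61, 10.1 and 11.4 CPM against 10.8, 12.7 and 13.7 CPM, with overlapping groups (log2 fold change 0.25, SE 0.11, FDR = 0.126). Among all tested members 31 share exonic bases with another gene, 6 of them with a gene on the same strand.

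By place in the structure, 49 tested genes belong to the large subunit (median log2 fold change 0.044). Of these, 3 were called higher and 3 lower (12.2%, against 17.5% of all genes). The small subunit had 26 tested genes, with a median of 0.038. Of these, 2 were called higher and none lower by edgeR (7.69%), and 4 had an unadjusted p below 0.05. Of the 44 tested genes with a bacterial counterpart 3 were called higher and 1 lower (9.09%, median 0.077). Of the 30 classed as specific to mitochondria 2 were called higher and 2 lower (13.3%, median 0.0073). Each of these shares is below that of all genes. Mrps18a, which was called higher, and Mrps18b were classed as specific to mitochondria, although both are relatives of a bacterial protein. Mrps18c was classed with the bacterial counterparts, so the split depends on how such genes are placed. Mrps30, which sits in the large subunit despite its name, was at a log2 fold change of 0.21 (SE 0.11, FDR = 0.192). Mrpl58, a peptidyl-tRNA hydrolase built into the large subunit that can free stalled ribosomes, was at -0.071 (SE 0.099). Mrps36, now assigned to the 2-oxoglutarate dehydrogenase complex and not to the mitoribosome, was at 0.12 (SE 0.068, FDR = 0.282), with its 3 Scd2-m/-m libraries just above its wild-type libraries.

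The summed level of the 78 genes, Mrps36 included and Dap3 and the other differently named mitoribosomal proteins left out, differed between the genotypes by less than the spread of the libraries. The sums were 1850.4, 1785 and 1754 CPM in wild-type and 1826, 1822 and 1764 CPM in Scd2-m/-m, so the groups overlapped, at 1796 ± 49.4 and 1804 ± 34.7 CPM (SD, n = 3 each). The large subunit summed to 1223 ± 42.5 against 1209.8 ± 18.4 CPM and the small subunit to 551 ± 9.42 against 569.9 ± 16.8 CPM. The ratio of large to small subunit transcripts was 2.26, 2.25 and 2.15 in wild-type and 2.11, 2.10 and 2.16 in Scd2-m/-m. Those ratios overlapped, and their means of 2.22 ± 0.063 and 2.12 ± 0.032 came closer without Mrpl52, at 1.96 ± 0.030 and 1.95 ± 0.026. Without Mrpl52 the whole set summed to 1652 ± 26.9 and 1704 ± 34.7 CPM.

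**Figure D3:**
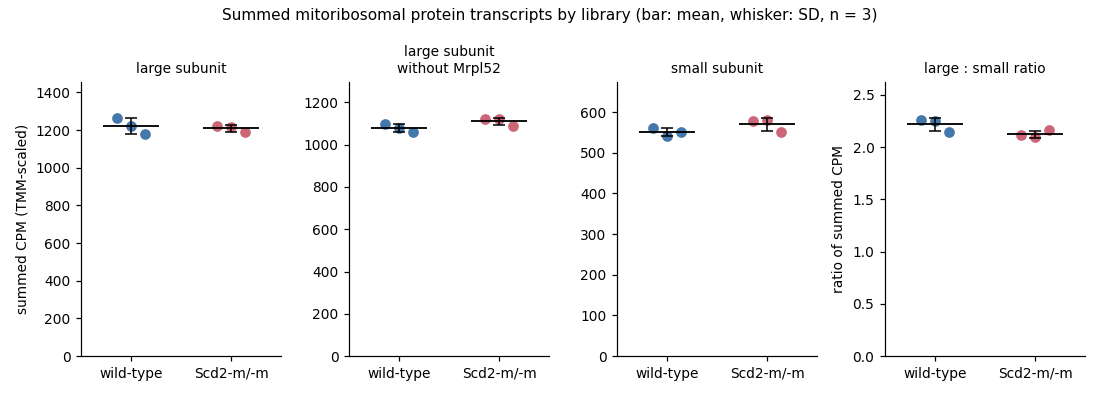
Summed level of the large-subunit genes, the same without Mrpl52, and the small-subunit genes in each library (CPM, axes from 0), and the ratio of the large to the small sum, with mean and SD of 3 libraries per genotype. The ratios lie between 2.15 and 2.26 for wild-type and between 2.10 and 2.16 in Scd2-m/-m, and the libraries of the genotypes overlap in each panel.

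Although the proteins are built into the mitoribosome in equal numbers, with few exceptions, their transcripts were far from equal. Per exonic length, mean levels over the 6 libraries ran from 308 TPM (counts per exonic base, relative to their sum over the library) for Mrpl52 to 2.91 TPM for Mrpl47, a ratio of 106, with a median of 22.6 TPM. The next highest levels were those of Mrps21 at 204 ± 15.0, Mrps24 at 124 ± 7.22, Mrpl54 at 101 ± 12.6 and Mrpl34 at 99.0 ± 14.4 TPM (SD over 6 libraries). Mrpl54 and Mrpl34 did not differ beyond their spread. Mrps21 and Mrps24 are small-subunit proteins with bacterial counterparts, and Mrpl54 is a mitochondria-specific large-subunit protein. The lowest levels after Mrpl47 were those of Mrps30 at 3.06 ± 0.33, Mrps35 at 3.81 ± 0.26, Mrps10 at 4.15 ± 0.32 and Mrps31 at 4.99 ± 0.39 TPM. None of these low genes passed the edgeR test, and Mrpl47 and Mrps10 were at log2 fold changes of -0.14 (SE 0.12) and -0.055 (SE 0.098).

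The order depends on the length used, since long annotated exons lower a level. With the length of the principal transcript in place of all exonic bases, the 2 orders had a Spearman correlation of 0.861 over the 76 genes, and 3 of the top 5 and 3 of the bottom 5 were shared. Mrpl34 then went to rank 12 and Mrps10 to rank 39, while Mrpl52, Mrps21 and Mrps24 stayed at ranks 1 to 3. In these wild-type and Scd2-m/-m libraries, Mrpl52 was thus the member with both the highest level and the largest fall.

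**Figure D4:**
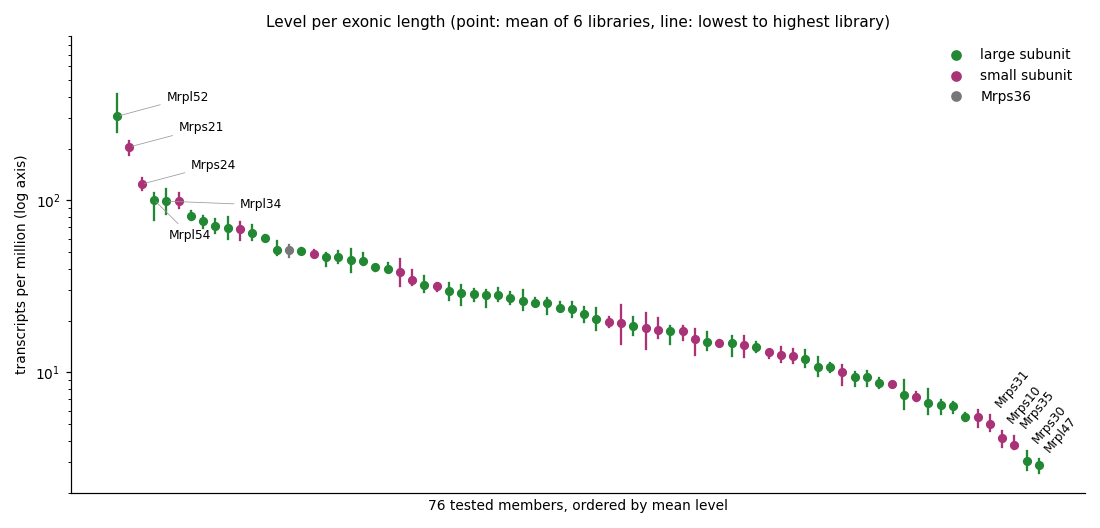
Level per exonic length (TPM, log axis) of the 76 tested members, ordered by the mean of 6 libraries, with a line from the lowest to the highest library. Levels fall from 308 for Mrpl52 to 2.91 for Mrpl47, and the lines of most neighbours overlap.

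Many mitoribosomal protein genes start close to another gene that is read in the other direction, so that one stretch of DNA can serve as the promoter of both. An annotated opposite-strand start lay within 1000 bases for 33 of the 76 tested members (43.4%), against 16.8% of the 12207 protein-coding genes tested. Of the 32 tested partners, 3 were called (9.38%, against 17.5% of all genes), and none of the members beside those 3 passed. These pairs are named after their values were seen. Mrpl51, which starts 100 bases from Ncapd2, a subunit of the condensin complex that compacts mitotic chromosomes, was at 22.1, 19.3 and 19.0 CPM in wild-type and at 21.3, 20.5 and 19.2 CPM in Scd2-m/-m (log2 fold change 0.016, SE 0.081). Ncapd2 was at 8.92, 10.1 and 11.1 against 24.2, 21.6 and 19.9 CPM (log2 fold change 1.13, SE 0.10, FDR = 4.8e-06), without overlap.

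Mrpl57 starts 49 bases from Ska3, which couples chromosomes to spindle microtubules. Mrpl57 was at a log2 fold change of -0.13 (SE 0.078) and Ska3 at 1.498 (SE 0.30, FDR = 0.0033, from a mean of 0.513 to 1.46 CPM). Mrpl49 starts 59 bases from Fau, which encodes a protein of the cytosolic ribosome. Mrpl49 was at -0.013 (SE 0.083), while Fau fell from 604 to 494 CPM (log2 fold change -0.29, SE 0.066, FDR = 0.0074). The difference between a member and its partner was not tested. Mrpl46 and Mrps11, one from each subunit, are partners of each other with 173 shared exonic bases, and their log2 fold changes were 0.25 (SE 0.093) and -0.076 (SE 0.0999).

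Promoters of mitoribosomal protein genes are known to be bound by ETS factors such as GABP, by NRF1 and by YY1. The promoters of the 4 called members with the smallest p are shown because Mrpl52, Mrpl39, Mrpl34 and Mrps15 carry the clearest differences. Each is the RefSeq sequence (GRCm38.p6) from 250 bases before to 50 bases after the start, 5′ to 3′ on the strand of the gene, with capitals for matches to CCGGAAG (ETS core), GCGCATGC (NRF1), CACGTG (E-box) or AAGATGGCG (YY1), all searched on both strands.
Mrpl52, chr14:54426659-54426958, plus strand: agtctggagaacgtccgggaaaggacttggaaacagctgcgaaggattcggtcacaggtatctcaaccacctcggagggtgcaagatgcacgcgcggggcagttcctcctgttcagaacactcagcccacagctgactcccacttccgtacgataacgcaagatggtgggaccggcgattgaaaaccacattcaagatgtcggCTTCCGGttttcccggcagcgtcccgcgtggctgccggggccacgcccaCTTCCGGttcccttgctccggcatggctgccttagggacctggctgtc
Mrpl39, chr16:84735195-84735494, minus strand: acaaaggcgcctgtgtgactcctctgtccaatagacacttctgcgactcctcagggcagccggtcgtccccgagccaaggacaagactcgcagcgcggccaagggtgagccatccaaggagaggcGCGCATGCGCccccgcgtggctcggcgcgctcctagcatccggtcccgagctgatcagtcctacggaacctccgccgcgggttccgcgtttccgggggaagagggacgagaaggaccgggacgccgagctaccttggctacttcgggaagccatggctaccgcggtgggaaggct
Mrpl34, chr8:71464676-71464975, plus strand: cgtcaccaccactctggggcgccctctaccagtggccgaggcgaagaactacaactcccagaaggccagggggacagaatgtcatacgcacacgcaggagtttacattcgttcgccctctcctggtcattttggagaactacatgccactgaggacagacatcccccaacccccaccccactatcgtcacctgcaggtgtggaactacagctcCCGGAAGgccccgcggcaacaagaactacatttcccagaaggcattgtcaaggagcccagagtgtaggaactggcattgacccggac
Mrps15, chr4:126046678-126046977, plus strand: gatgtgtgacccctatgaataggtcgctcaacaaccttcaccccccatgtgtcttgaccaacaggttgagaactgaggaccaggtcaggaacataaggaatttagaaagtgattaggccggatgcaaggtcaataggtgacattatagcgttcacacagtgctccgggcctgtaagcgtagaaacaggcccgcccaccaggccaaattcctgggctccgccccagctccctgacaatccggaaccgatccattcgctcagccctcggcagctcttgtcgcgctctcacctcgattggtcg

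Mrpl52, which fell, held 2 ETS cores in reverse complement, starting at positions -47 and 3 relative to the start, and Mrpl34, which rose, held 1 at -37. Mrpl39 held an NRF1 match on each strand that overlap by all but 2 bases, at -125 and -123, and Mrps15 held none of the 4 motifs. Among the 67 of 76 tested members with a promoter in the RefSeq table, 24 had an ETS core (35.8%), against 20.5% of the tested protein-coding genes with one. The YY1 letters were in 8 members (11.9% against 3.65%), the NRF1 letters in 7 (10.4% against 6.09%) and the E-box in 5 (7.46% against 11.7%). Over all 32851 promoters of the table, 8.86%, 1.40%, 2.71% and 7.15% held the ETS, YY1, NRF1 and E-box letters. The 24 members with an ETS core had a median log2 fold change of -0.0085 and the 43 without had 0.057. Of the 8 called members 5 had an ETS core, of which 3 fell (Mrpl52, Mrpl43 and Mrpl27) and 2 rose (Mrpl34 and Mrps18a). Such matches are a description of letters, not of binding.

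Several nuclear regulators of mitochondrial genes were lower in Scd2-m/-m BMDMs. Of 11 tested regulators 5 were called lower (45.5%, against 7.84% of all genes) and none was called higher by edgeR, with 6 at an unadjusted p below 0.05 and a median log2 fold change of -0.19. The list was chosen with earlier results of these data known, so its share called is a description only. Myc, a growth-promoting transcription factor, was at 15.1, 10.1 and 8.52 CPM in wild-type and at 7.06, 6.24 and 6.62 CPM in Scd2-m/-m (log2 fold change -0.76, SE 0.19, FDR = 0.0201). Its first wild-type library was well above the other two, and the groups did not overlap. Pprc1, a coactivator related to PGC-1, was at 54.8, 49.2 and 50.1 against 37.9, 33.5 and 34.6 CPM (log2 fold change -0.54, SE 0.070, FDR = 0.00013). The Scd2-m/-m libraries were all far below the wild-type ones. Pprc1 lies 1.74 Mb from Scd2, and 18.1% of the tested genes within 5 Mb of Scd2 were called lower.

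The 3 smaller falls were those of Esrra, an orphan nuclear receptor (58.9 to 49.3 CPM, log2 fold change -0.26, FDR = 0.0214), Yy1 (101 to 86.7 CPM, -0.22, FDR = 0.0151) and Nrf1 (28.6 to 24.7 CPM, -0.21, FDR = 0.0439). Each of these had all 3 Scd2-m/-m libraries below all wild-type libraries. Gabpa, the DNA-binding subunit of GABP, was at a log2 fold change of 0.035 (SE 0.085), and Ppargc1b was at -0.18 (SE 0.0995, FDR = 0.239). Ppargc1a, a coactivator best known in muscle and fat, was too low to be tested, at no more than 0.0795 CPM in a library. Pprc1 was called in each of the 6 fits without a library, Yy1 in 5, Esrra in 4, Myc in 3 and Nrf1 in 1.

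Mitoribosomal proteins with other names were few. Dap3, a GTP-binding protein of the small subunit, was at 23.7, 24.8 and 23.7 CPM in wild-type and at 27.9, 27.8 and 28.1 CPM in Scd2-m/-m, without overlap (log2 fold change 0.22, SE 0.064, FDR = 0.0318). This call was lost in each of the 6 fits without a library. Aurkaip1 (-0.12), Ptcd3 (0.055), Chchd1 (0.027) and Gadd45gip1 (-0.029), the other 4 tested, were not called.

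Among factors that assemble the mitoribosome, read its mRNAs or charge its tRNAs, 3 of 59 tested genes were called (5.08%, against 17.5% of all genes), with a median log2 fold change of 0.028. Gtpbp6, a GTPase that splits the 2 subunits and helps to build the large one, was at 14.0, 14.3 and 12.7 against 9.99, 10.7 and 10.8 CPM (log2 fold change -0.38, SE 0.089, FDR = 0.0093). Mettl15, which methylates the rRNA of the small subunit, was at 1.49, 1.37 and 1.40 against 2.29, 1.95 and 2.48 CPM (log2 fold change 0.66, SE 0.19, FDR = 0.0256). Both genes had groups that did not overlap, in opposite directions. Iars2, the mitochondrial isoleucyl-tRNA synthetase, went from 47.1 to 53.7 CPM (log2 fold change 0.19, SE 0.060, FDR = 0.0415). Gtpbp6 was called in 5, Mettl15 in 2 and Iars2 in 1 of the 6 fits without a library. By list, the 27 assembly factors had 1 gene higher and 1 lower (median -0.013), the 17 synthetases had 1 higher (median -0.024), and the 15 translation factors had none called by edgeR, with 2 at an unadjusted p below 0.05 (median 0.035). Without Scd2-m/-m replicate 3, Gtpbp6 was the 1 gene of the 59 still called, and without wild-type replicate 2 none was.

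Of 15 genes of mitochondrial transcription, RNA processing and DNA copying, 3 were called (20%, against 17.5% of all genes). Polg, the catalytic subunit of the polymerase of mitochondrial DNA, was at 61.5, 57.4 and 53.1 against 44.6, 44.7 and 39.1 CPM (log2 fold change -0.42, SE 0.074, FDR = 0.0014) and was called without each library in turn. Elac2, which trims the 3′ ends of tRNAs, went from 24.0 to 20.4 CPM (-0.23, FDR = 0.0352). Hsd17b10, a subunit of mitochondrial RNase P, went from 27.2 to 32.8 CPM with overlapping groups (0.27, FDR = 0.0386). Elac2 was called in 1 and Hsd17b10 in 2 of the 6 fits without a library. The mRNAs that the mitoribosome translates were at like levels in both genotypes. None of the 13 was called by edgeR or had an unadjusted p below 0.05, and their log2 fold changes ran from -0.17 to 0.22 with a median of 0.036, in libraries made by poly(A) selection.

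**Figure D5:**
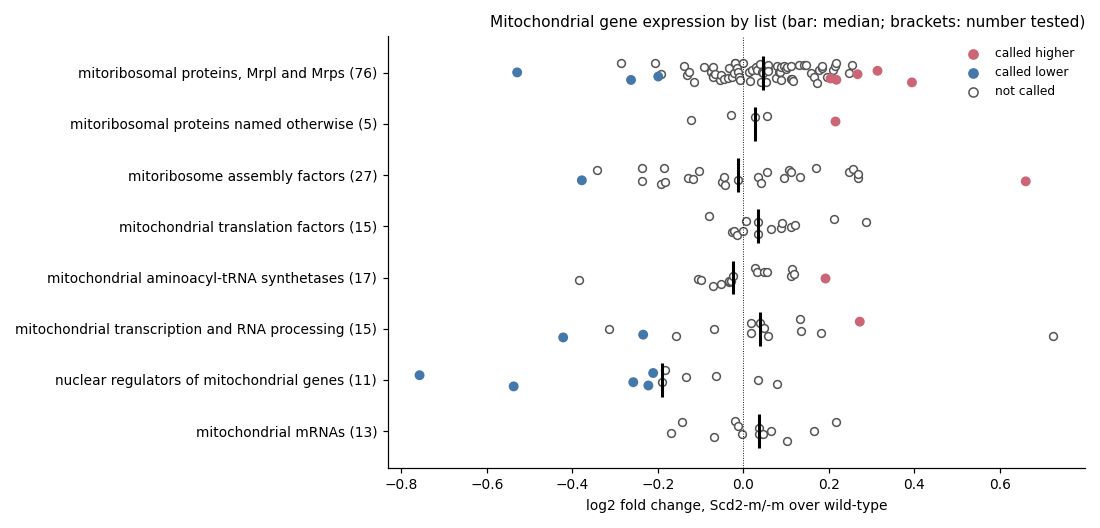
Log2 fold change of Scd2-m/-m over wild-type for the tested genes of each list, with filled points at an FDR below 0.05 and a vertical bar at each list's median. The medians lie between -0.024 and 0.045 except that of the nuclear regulators at -0.19, where 5 of 11 points are filled and all of those are below 0.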

How the data were processed

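Poly(A)-selected libraries of 3 wild-type and 3 Scd2-m/-m BMDM samples were analysed. The authors aligned reads with STAR to Ensembl's GRCm38 primary assembly and deposited a table of raw counts for each gene and library. How reads were counted, and whether by strand, the sources used here do not state. Their own comparison table (fold changes, p-values, log2 CPM) was not used. After removal of 276 repeated entries, 40481 genes remained, of which 99.7% had an exonic length (GENCODE, GRCm38).

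Counts were fitted with edgeR 4.0.16 (filterByExpr, TMM, glmQLFit with robust estimation, glmQLFTest, no covariates) in R 4.3.3, and p-values of 14778 genes were adjusted by the Benjamini-Hochberg method (FDR). A gene was called at an FDR below 0.05. The fit was also run on simulated counts with far fewer changed genes than were called here. That setting is simpler than these data and cannot vouch for calls at small fold changes. Totals were 46285176 to 57629638 counts per library, so a member rested on at least 162 counts. Nothing in the labels ties libraries to separate mice, so p-values measure the spread between these libraries, which may be technical.

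Members and lists were chosen with earlier results of these data known. Named were Scd2, called members, the 5 highest and 5 lowest levels, the 3 largest uncalled fold changes, members placed apart from their names, companion proteins, called genes of companion lists (at most 6 each) and 7 regulators. Mrpl35, Twnk, Mrps11, Mrpl49, Mrpl51, Mrpl57 and the partner genes were named after their values were seen. Alternatives were RLE and upper-quartile factors, DESeq2 1.42.0, limma-voom (limma 3.58.1) with and without quality weights, other count filters, the replicate number as a block, each library left out, halved counts, a length offset and a fold limit. The principal transcript's length was added after seeing the data.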

Additional observations from a re-analysis of the deposited data

How the results depend on the processing

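The median log2 fold change of the members ran from 0.039 to 0.057 over the 16 alternative fits, a movement below the SD of 0.021 between the libraries' medians. Limma-voom with quality weights called 20 members, 9 genes of translation and assembly and 4507 genes in all, against 8, 3 and 2585, and all 8 members were among the 20. Of the 20 members 16 were higher and 4 lower, against 5 and 3 in the main fit. Of the 4507 genes 2325 were higher and 2182 lower. Adding the limit of 2 on the absolute log2 fold change left 0, 0 and 98. With 1 library left out, the calls ran from 1 to 8 members, from 0 to 3 factors and from 1440 to 2567 genes. Of the 8 called members, 1 was kept without wild-type replicate 2, 1 without Scd2-m/-m replicate 2, 3 without wild-type replicate 3, 5 without either of the other Scd2-m/-m replicates and 7 without wild-type replicate 1. The other fits called 6 to 8 members, 2 to 4 factors and 2501 to 3011 genes. Of 672 values of 42 named genes under these fits, 586 kept their side of the threshold, 76 lost and 10 gained a call, and no called value changed sign. The deviations of same-numbered libraries correlated at 0.053, -0.020 and 0.040, and those of differently numbered libraries at -0.074 to 0.041. Such values cannot show whether same-numbered libraries shared a mouse or a preparation, which was not tested. With the replicate block, 8 members, 3 factors and 2975 genes were called, and the members' median was 0.045. Each tested member had 162 counts or more in a library. The effect of exonic bases shared with other genes, as in Mrps34, Mrps25, Mrpl43 and Mrps6, on the members' values was not tested.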
